A study of Saccharomyces cerevisiae with 29 samples.

Results

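The daughter cell separation genes are a set of 9 budding yeast genes, EGT2, DSE1, DSE2, DSE3, DSE4, SCW11, CTS1, AMN1 and ASH1, taken by name from the coding rows of the expression table. They are 9 of 5798 coding genes, and all 9 passed the filter on low values that 5580 coding genes passed (a mean of at least 10 normalized reads over the libraries). The set was selected on its normalized read counts, since these genes are high in rad50Δ and mre11Δ cells. Their levels in those strains, and the differences of mre11Δ from rad50Δ and from mre11-H125N, are therefore given as a description with no test. Tests of the other groups use the same wild-type libraries as that choice. Their p values, ranks and shares of calls are therefore not independent of it.

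After mitosis a budding yeast mother and its bud remain joined by a septum of chitin and glucan. Enzymes made by the daughter dissolve the septum from its side, and their genes depend on a kinase pathway called the RAM network, in which the kinase Cbk1 acts with Mob2. The transcription factor Swi5, which is made in G2 and mitosis and enters the nucleus as cells leave mitosis, activates genes of the interval from mitosis to G1, ASH1 and EGT2 among them. The mating pheromone α-factor holds MATa cells later than this, in G1, before DNA replication begins.

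Total RNA was sequenced from W303 yeast. All groups are MATa, carry ade2-1, trp1-1 and can1-100 together with the auxotrophic alleles leu2-3,112 and his3-11,15 and a ura3 mutation, and are GAL and RAD5. Groups in G1 were rad50Δ (rad50::KAN, with URA3::GPD-TK7), mre11Δ (mre11::HIS), mre11-H125N (an allele changed in the nuclease site of Mre11), rrp6Δ (rrp6::TRP, with URA3::GPD-TK7) and xrn1Δ (xrn1::ADE2), with 2 libraries each. Also in G1 were ku70Δ (ku70::HIS, 1 library) and wild-type cells (4 libraries). The last group was wild-type cells treated with methyl methanesulfonate (MMS, 2 libraries). Cells grew at 25 °C in YEP with 2% glucose, and arrest took 170 min in α-factor at 5 µg/ml. The MMS cells were released into S phase with 0.033% of this alkylating agent for 60 min. Rad50 and Mre11 belong to the MRX complex, which processes DNA ends, and Ku70 to the complex that protects ends for joining. Rrp6 belongs to the exosome of the nucleus, which degrades RNA from its 3′ end, and Xrn1 degrades decapped mRNA in the cytoplasm. The labels do not say whether libraries of a group came from separate cultures, so the p values measure the spread between these libraries, which may be technical. The strain labels do not say how many clones of a deletion were used, and the thymidine kinase cassette of rad50Δ and rrp6Δ is absent from the wild-type label.

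Values are normalized reads, and they are divided by the length of the open reading frame only where genes are set side by side. The words "rose" and "fell" are kept for changes with an adjusted p under 0.05, by limma over all tested rows of the table, and a log2 change (of the value plus 1) stands with its standard error. Libraries held 7512010 to 32942688 reads over open reading frames, and the lowest read count of any of the 9 genes in the 16 libraries with recovered reads was 15 (DSE3, MMS library 1). The deleted genes were almost silent in their own strains: RAD50 had 0.0 and 2.58 normalized reads in rad50Δ, MRE11 had 0.0 in both mre11Δ libraries, and XRN1, the highest remnant, had 9.84 and 15.8 in xrn1Δ. Library 1 of rad50Δ, of mre11Δ and of wild type stood apart from the rest of the G1 libraries. A list of 15 G1/S genes was 1.51, 2.97 and 1.92 log2 units above the wild-type mean in these libraries. A list of 14 pheromone-induced genes was 1.02, 2.34 and 1.26 units below it. The wild-type mean includes wild-type library 1. For the G1/S list, library 2 of rad50Δ and of mre11Δ stood at 0.21 and 0.58, against -0.82 to -0.53 in the other wild-type libraries. The 6 a-cell genes that mark MATa cells summed to 40011 normalized reads or more in every G1 library, and none of them was at 0. That lowest sum was in mre11Δ library 1, below the wild-type G1 range of 67945 to 91656.

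The genes started from very different levels. Per base of open reading frame, AMN1 was highest in wild-type G1 cells, with 2.39 ± 0.958 normalized reads (SD, n = 4). CTS1 had 0.765 ± 0.352, SCW11 0.699 ± 0.331, ASH1 0.379 ± 0.242 and DSE1 0.278 ± 0.151 normalized reads per base. DSE2 had 0.112 ± 0.0848, DSE3 0.0687 ± 0.0101, DSE4 0.0316 ± 0.00704 and EGT2 0.0202 ± 0.00389 normalized reads per base. In this order DSE3, DSE4 and EGT2 were separated from each other beyond the range of the 4 libraries, while each neighbouring pair from AMN1 down to DSE3 overlapped. EGT2 and DSE4 are both near an end of chromosome 14, at positions 24048 to 27173 on the forward strand and 755746 to 759099 on the reverse strand of build R64. The last of these positions is 24.9 kb from the last annotated base of the chromosome.

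**Figure D1:**
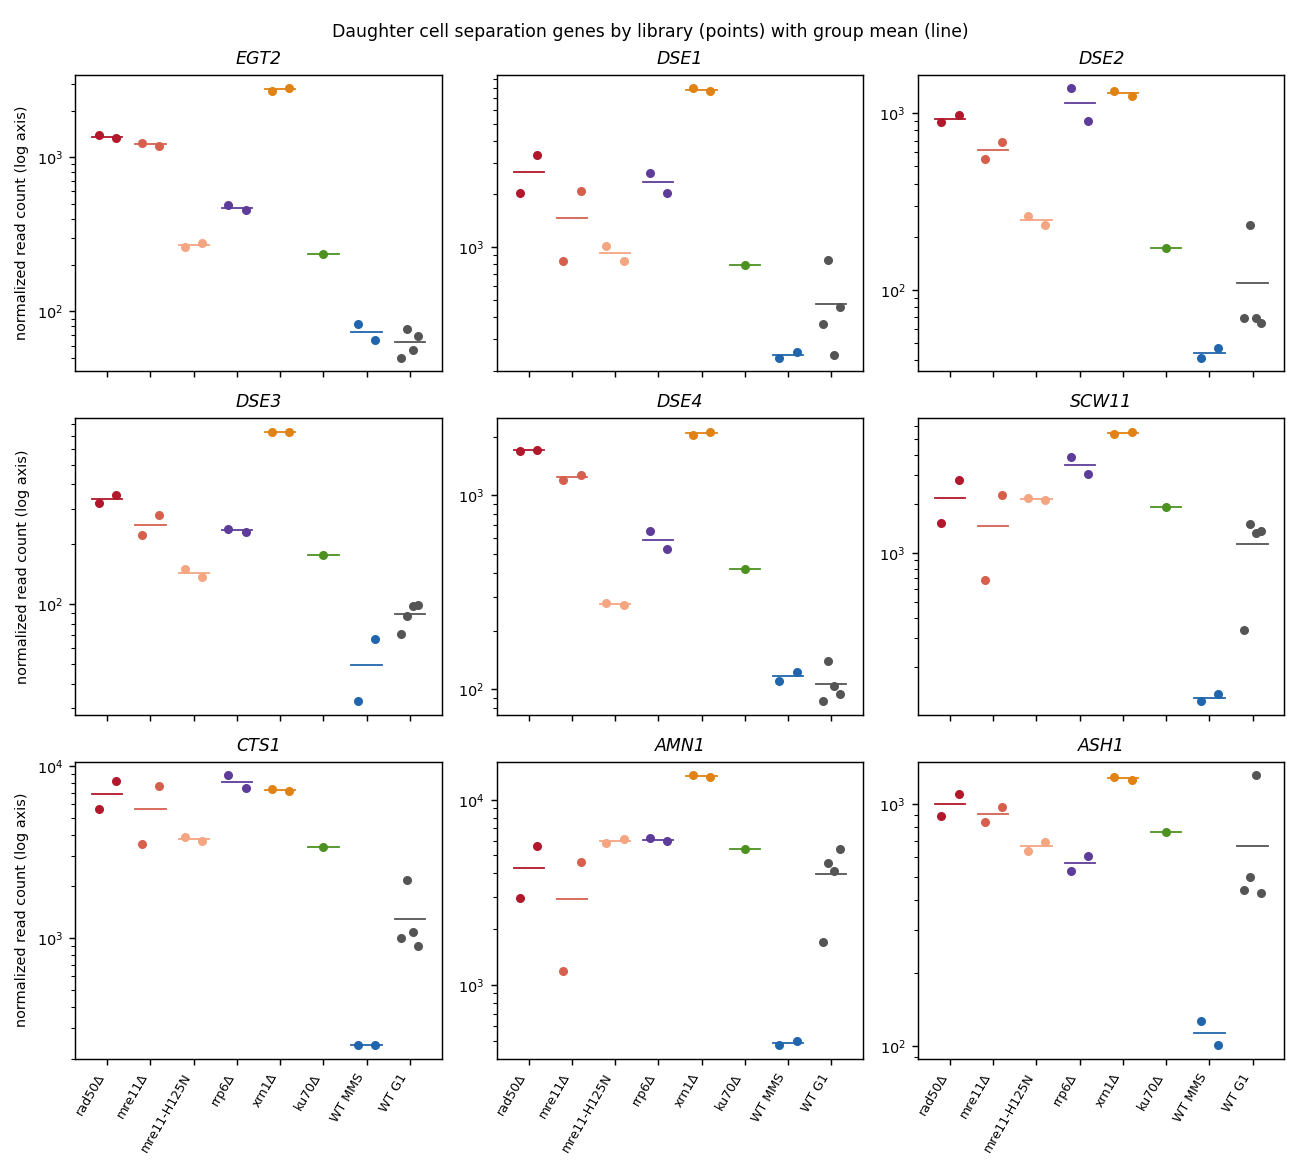
Normalized reads of each gene (log axis, a scale per panel) in every library, with a line at the group mean. The libraries of EGT2 and of DSE4 lie close together in rad50Δ, mre11Δ, mre11-H125N and xrn1Δ, while SCW11 and AMN1 have a low library in rad50Δ, mre11Δ and wild type.

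EGT2, DSE4 and DSE2 were the farthest above wild type of the 9 genes in the MRX deletions. EGT2, an endoglucanase anchored in the cell wall, had 1390 and 1327 normalized reads in rad50Δ and 1244 and 1182 in mre11Δ, against 50.2, 76.7, 56.1 and 69.5 in wild type. DSE4, a secreted glucanase that opens the septum from the daughter side, had 1697 and 1718 in rad50Δ and 1208 and 1280 in mre11Δ, against 86.4, 140, 104 and 94.1 in wild type. For both genes the groups lay far apart, and the libraries of a deletion differed by at most 1.06-fold. The changes were 4.43 ± 0.16 and 4.26 ± 0.16 log2 units for EGT2 in rad50Δ and mre11Δ, and 4.02 ± 0.17 and 3.56 ± 0.17 for DSE4. These are 21.5-fold and 19.2-fold for EGT2, and 16.1-fold and 11.7-fold for DSE4.

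DSE2, which encodes a secreted glucanase-like protein of daughter cells, had 892 and 975 normalized reads in rad50Δ and 554 and 686 in mre11Δ, against 69.7, 234, 69.1 and 64.9 in wild type. Its wild-type library 2 was the high one, still well under both deletions. CTS1, the endochitinase that cuts the chitin of the septum, had 5630 and 8230 in rad50Δ and 3512 and 7703 in mre11Δ, against 1000, 2178, 1081 and 907 in wild type. SCW11, another glucanase-like wall protein, had 1532 and 2789 in rad50Δ and 683 and 2259 in mre11Δ, against 339, 1511, 1335 and 1371 in wild type. The low value of SCW11 in each group was that of library 1, and mre11Δ overlapped wild type.

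Among the genes whose products are not wall enzymes, DSE1 and DSE3, both daughter-specific, were also higher. DSE1 had 2031 and 3321 normalized reads in rad50Δ and 836 and 2073 in mre11Δ, against 369, 847, 244 and 457 in wild type, so mre11Δ library 1 fell inside the wild-type range. DSE3 had 321 and 354 in rad50Δ and 221 and 280 in mre11Δ, against 71.1, 87.0, 98.4 and 98.7 in wild type, with no overlap. AMN1, a daughter protein that shuts off the mitotic exit network, had 2934 and 5638 in rad50Δ and 1191 and 4633 in mre11Δ, against 1715, 4548, 4132 and 5404 in wild type. ASH1, a repressor that keeps the HO endonuclease gene off in daughters, had 894 and 1093 in rad50Δ and 838 and 968 in mre11Δ, against 442, 500, 1309 and 427 in wild type. AMN1 and ASH1 overlapped wild type in both deletions, ASH1 through the single high wild-type library 3.

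In rad50Δ 6 of the 9 genes (EGT2, DSE1, DSE2, DSE3, DSE4 and CTS1) were over the threshold upwards, where 12.8% of tested coding genes were. The same 6 were over it in mre11Δ, where 12.1% of coding genes were higher. The median change of the 9 genes was 2.49 log2 units in rad50Δ and 1.60 in mre11Δ, against -0.0072 and -0.016 over all tested coding genes. Since the genes were chosen for this contrast, these shares are a description. Without library 1 of rad50Δ, mre11Δ and wild type, 7 genes were over the threshold in each deletion, SCW11 being the addition. DSE1 was no longer over the threshold in rad50Δ without rad50Δ library 2, or in mre11Δ without mre11Δ library 2. In mre11Δ it was also not over it with a replicate block and with wild-type libraries 1 and 2 only. With only the groups compared, neither DSE1 nor CTS1 was over it in mre11Δ.

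The rad50Δ and mre11Δ strains were then set against each other. All 9 genes had the higher mean in rad50Δ, by 0.13 to 0.98 log2 units with a median of 0.46, against 0.014 over all tested coding genes. Of these 9 differences 0 were over the threshold, which 0.0717% of coding genes passed upwards and 0.0896% downwards. For EGT2, DSE2, DSE3 and DSE4 both rad50Δ libraries lay above both mre11Δ libraries, 4 of the 9 genes, where 18.4% of coding genes did. The largest difference was in DSE1, at 0.98 ± 0.51 log2 units, and the groups overlapped. EGT2 differed by 0.16 ± 0.19 log2 units and DSE4 by 0.46 ± 0.19. The differences of SCW11, CTS1 and AMN1 were negative without mre11Δ library 1, and that of ASH1 without rad50Δ library 2.

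**Figure D2:**
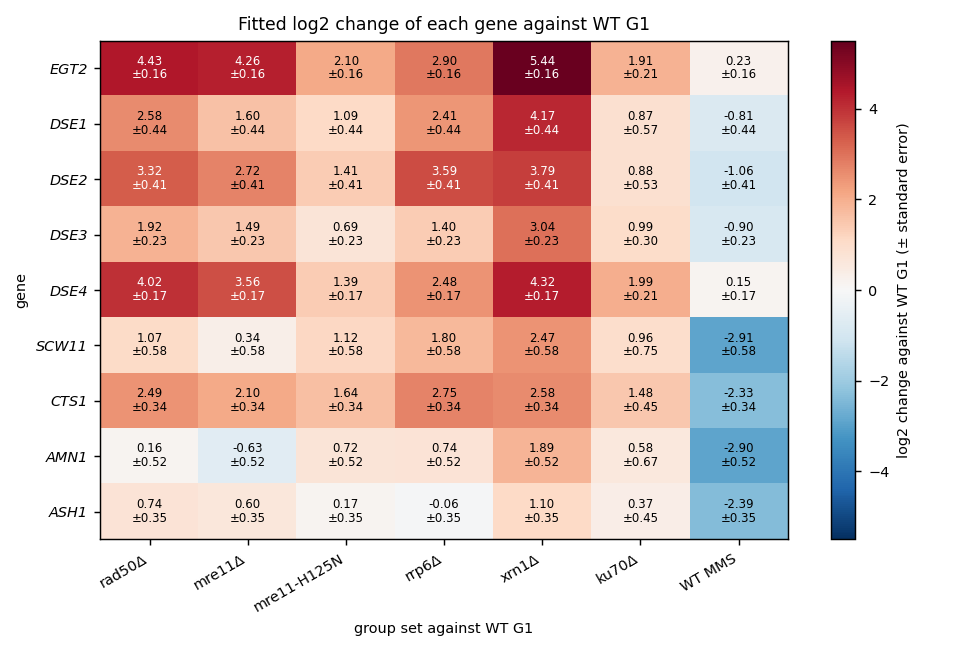
Fitted log2 change of each gene in each group against wild type in G1, with its standard error (number under the change). The xrn1Δ column is positive for every gene, and in the MMS column EGT2 and DSE4 stay near 0 while SCW11, CTS1, AMN1 and ASH1 are at or below -2.33.

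The mre11-H125N allele changes the nuclease site of Mre11. MRE11 itself had 679 and 658 normalized reads in mre11-H125N, against 623 to 713 in wild type. The part of the nuclease in these results was not tested. EGT2, DSE4 and CTS1 rose in this strain. EGT2 had 260 and 279 normalized reads in mre11-H125N, against 50.2 to 76.7 in wild type. Its change of 2.10 ± 0.16 log2 units, 4.27-fold, ranked 1 of all 5580 tested coding genes in this strain (adjusted p = 2.54e-05). DSE4 had 279 and 273, against 86.4 to 140 in wild type, a change of 1.39 ± 0.17 log2 units (adjusted p = 0.00103). CTS1 had 3869 and 3691, against 907 to 2178 in wild type, a change of 1.64 ± 0.34 log2 units (adjusted p = 0.0439).

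These 3 of 9 genes stand beside 1.04% of coding genes that rose in mre11-H125N. The median change was 1.12 log2 units for the 9 genes and -0.0002 for all tested coding genes. DSE2 had 262 and 233 in mre11-H125N, against 64.9 to 234 in wild type, and was not called (1.41 ± 0.41, adjusted p = 0.0846). DSE3 had 149 and 137, against 71.1 to 98.7 in wild type, without overlap, and was not called either (0.69 ± 0.23, adjusted p = 0.113). DSE1, SCW11, AMN1 and ASH1 changed by 1.09, 1.12, 0.72 and 0.17 log2 units, none of them called. The CTS1 call was lost without either mre11-H125N library and without wild-type library 1 or 4. It was also lost, with that of DSE4, in a fit of only these 2 groups.

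Set directly against mre11-H125N, mre11Δ cells had 4.50-fold more EGT2 RNA and 4.51-fold more DSE4 RNA. The fitted differences were 2.17 ± 0.19 log2 units for both genes. These 2 were the genes over the threshold, where 8.62% of coding genes were higher. DSE2 followed with 1.31 ± 0.48 log2 units, and its mre11Δ libraries were above those of mre11-H125N. AMN1 was the opposite, with 1191 and 4633 normalized reads in mre11Δ, against 5858 and 6108 in mre11-H125N.

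The ku70Δ strain, which lacks the other major complex of DNA ends, was measured in 1 library. DSE4 had 416 normalized reads there, against 86.4 to 140 in wild type, and rose by 1.99 ± 0.21 log2 units (adjusted p = 0.000379). EGT2 had 236, against 50.2 to 76.7 in wild type, and rose by 1.91 ± 0.21 (adjusted p = 0.000493). They were 2 of the 9 genes, and 0.430% of coding genes rose in ku70Δ. CTS1, at 3382 normalized reads against 907 to 2178 in wild type, changed by 1.48 ± 0.45 log2 units and was not called (adjusted p = 0.180). The median change of the 9 genes was 0.96 log2 units, against 0.013 over all tested coding genes. The fit assumes that this library varies like the other groups. Both calls were lost when ku70Δ and wild type were fitted alone, and 4 genes were called without wild-type library 2.

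Loss of the nuclear exosome subunit Rrp6 was accompanied by a rise of all 5 wall enzymes, DSE1 and DSE3. DSE2 had 1390 and 908 normalized reads in rrp6Δ, against 64.9 to 234 in wild type. Its change of 3.59 ± 0.41 log2 units, 10.5-fold, ranked 2 among coding genes (adjusted p = 4.51e-05). EGT2 had 491 and 453, against 50.2 to 76.7 in wild type (2.90 ± 0.16, adjusted p = 1.22e-07). CTS1 had 8838 and 7451, against 907 to 2178 in wild type (2.75 ± 0.34, adjusted p = 9.60e-05). For all 3 genes both rrp6Δ libraries lay above the 4 of wild type.

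DSE4 in rrp6Δ had 652 and 530 normalized reads, against 86.4 to 140 in wild type (2.48 ± 0.17, adjusted p = 4.62e-07). DSE1 rose 4.85-fold (adjusted p = 0.00152), DSE3 2.64-fold (adjusted p = 0.000547) and SCW11 3.03-fold (adjusted p = 0.0392). SCW11 lost its call without either rrp6Δ library and with wild-type libraries 3 and 4 only. The call was also lost on coding rows only and with only the groups compared. AMN1, at 6206 and 5970, and ASH1, at 529 and 608, were not called (adjusted p = 0.322 and 0.915), and their wild-type ranges were 1715 to 5404 and 427 to 1309. In all, 7 of the 9 genes rose in rrp6Δ, and 8.64% of coding genes did. The median change was 2.41 log2 units for the 9 genes and -0.0029 for all tested coding genes.

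By group mean, 8 of the 9 genes were highest in xrn1Δ, the strain without the cytoplasmic exonuclease. Among these 8 the highest single library was outside xrn1Δ for DSE2 (1390, rrp6Δ) and ASH1 (1309, wild type). EGT2 had 2689 and 2806 normalized reads in xrn1Δ, against 50.2 to 76.7 in wild type. This 43.5-fold difference, 5.44 ± 0.16 log2 units, ranked 1 of all tested coding genes (adjusted p = 1.97e-11). DSE4 had 2059 and 2134, against 86.4 to 140 in wild type, and rose 19.8-fold (adjusted p = 3.89e-10). DSE1 had 7953 and 7622, against 244 to 847 in wild type, and rose 16.2-fold (adjusted p = 6.20e-06). The xrn1Δ libraries of the 3 genes lay far above wild type and close to each other.

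DSE2 rose 11.8-fold in xrn1Δ (adjusted p = 6.33e-06), DSE3 8.22-fold (1.79e-07), CTS1 5.61-fold (3.97e-05), SCW11 4.78-fold (0.00309) and AMN1 3.40-fold (0.00755), each adjusted over all rows. AMN1 had 13531 and 13327 normalized reads, against 1715 to 5404 in wild type, and passed the test upwards in none of the other strains. ASH1 had 1292 and 1254, against 442, 500, 1309 and 427 in wild type, so the groups overlapped. Its 1.90-fold rise (adjusted p = 0.0158) was lost without either xrn1Δ library. The call was also lost with only the groups compared and with wild-type libraries 3 and 4 only. Leaving out the number 1 libraries of rad50Δ, mre11Δ and wild type lost it too. All 9 genes rose, where 35.1% of coding genes did, and their median change was 3.04 log2 units, against 0.06 over all tested coding genes. Normalized reads summed over coding genes were 10651941 and 10839549 in xrn1Δ, against 18403289 to 21587864 in wild type, so the levels rest on the authors' size factors. In RNA of a whole culture, more cells of a type and more RNA per cell cannot be told apart.

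MMS-treated cells had left the arrest and were in S phase, and the agent, the release and the phase cannot be told apart. In these cells 5 genes fell. SCW11 had 124 and 137 normalized reads with MMS, against 339, 1511, 1335 and 1371 in wild-type G1 (-2.91 ± 0.58, adjusted p = 0.00215). AMN1 had 473 and 497, against 1715 to 5404 in wild-type G1 (-2.90 ± 0.52, adjusted p = 0.00102). ASH1 had 126 and 101, against 427 to 1309 in wild-type G1 (-2.39 ± 0.35, adjusted p = 0.000229). CTS1 had 241 and 239, against 907 to 2178 in wild-type G1 (-2.33 ± 0.34, adjusted p = 0.000253). The MMS libraries of these 4 genes lay below all wild-type libraries.

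DSE3 fell by 0.90 ± 0.23 log2 units with MMS (adjusted p = 0.00769), a call lost without MMS library 1. The call was also lost with only the groups compared and with wild-type libraries 1 and 2 only. EGT2 and DSE4 did not follow the others. EGT2 had 82.5 and 65.2 normalized reads with MMS, against 50.2 to 76.7 in wild-type G1 (0.23 ± 0.16, adjusted p = 0.276). DSE4 had 111 and 122, against 86.4 to 140 in wild-type G1 (0.15 ± 0.17, adjusted p = 0.483). DSE1 and DSE2 changed by -0.81 ± 0.44 and -1.06 ± 0.41 log2 units and were not called (adjusted p = 0.160 and 0.0579). The fall of 5 of 9 genes stands beside 23.5% of coding genes that fell, and the median change was -1.06 log2 units for the 9 genes and 0.0046 for all tested coding genes.

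**Figure D3:**
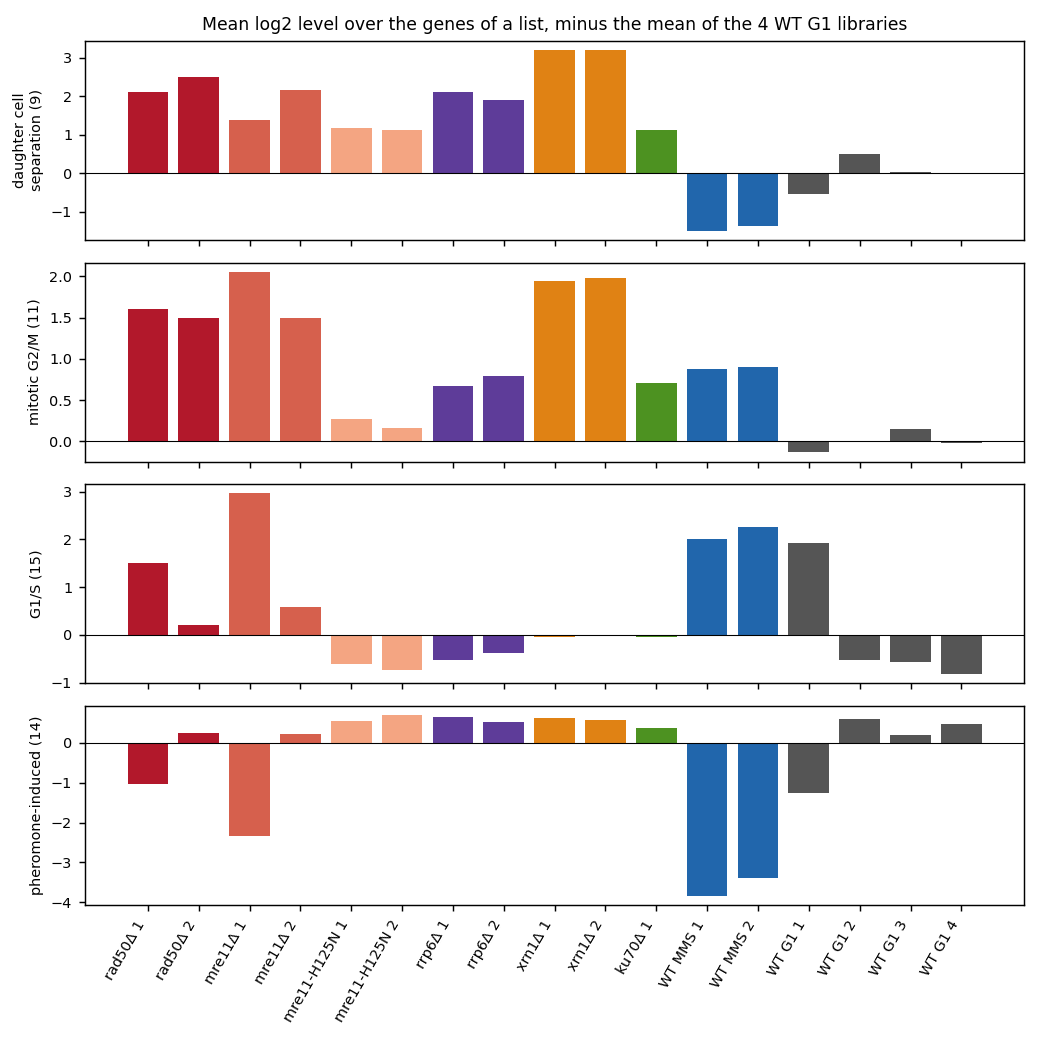
Mean log2 level of the 9 genes and of 3 marker lists in each library, as a difference from the mean of the 4 wild-type G1 libraries (bars). The mitotic bars are highest in xrn1Δ and the MRX deletions, and library 1 of rad50Δ, mre11Δ and wild type has high G1/S and low pheromone bars.

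Markers of the arrest and other gene lists were counted beside the set. Of all tested coding genes, 12.8% were higher and 12.1% lower in rad50Δ, and 12.1% higher and 11.9% lower in mre11Δ. The shares that rose and fell were 1.04% and 0.412% in mre11-H125N, 8.64% and 9.19% in rrp6Δ, 35.1% and 32.8% in xrn1Δ, 0.430% and 0.358% in ku70Δ, and 23.5% and 23.5% with MMS. The list counts given here stand beside these shares, and differences between lists were not tested. Of 15 G1/S genes, 10 rose with MMS and 1 fell in xrn1Δ. In rad50Δ 1 of them was over the threshold upwards, and in mre11Δ 2 were. Of 11 mitotic genes (SWI5, CLB2 and others), 8 were over the threshold upwards in rad50Δ and 8 in mre11Δ, 1 in mre11-H125N, 6 in rrp6Δ, 11 in xrn1Δ and 1 in ku70Δ. With MMS 5 of them rose and 3 fell. The list's mean was 1.49 to 1.60 log2 units above the wild-type mean in rad50Δ, 1.501 to 2.06 in mre11Δ and 1.94 to 1.98 in xrn1Δ. It was 0.67 to 0.79 in rrp6Δ, 0.71 in ku70Δ, 0.88 to 0.90 with MMS and 0.17 to 0.27 in mre11-H125N, against -0.13 to 0.15 in wild type. None of the 11 was at 0 in any library. The part of cells outside the arrest in these results was not tested.

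The pheromone-induced list, 14 genes such as FUS1 and FIG1, fell with MMS (14 of 14), and its mean lay at -3.85 to -3.40 log2 units from that of wild type there. In xrn1Δ 3 of these 14 genes rose. All 6 a-cell genes fell with MMS as well, while 4 of them rose in xrn1Δ and 2 in rrp6Δ. In rad50Δ 1 a-cell gene was over the threshold upwards. Of 4 α-cell genes, 3 passed the filter, and 2 of these were over the threshold upwards in rad50Δ and in mre11Δ. In rrp6Δ 2 of the 3 rose, in mre11-H125N and ku70Δ 1 each, and in xrn1Δ 1 rose and 1 fell. MF(ALPHA)2, a gene for α-factor itself, averaged 113 normalized reads in rad50Δ, 50.1 in mre11Δ and 10.8 in wild type. SAG1, the α-agglutinin, averaged 4135 normalized reads in rad50Δ, 2476 in mre11Δ and 324 in wild type. STE3, the receptor that marks α cells, averaged 30.3 in rad50Δ, 23.8 in mre11Δ and 15.2 in wild type, and was not called. The part of these genes in the results was not tested.

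The order of the groups differed between the genes. For EGT2 the group means in falling order were those of xrn1Δ (2748), rad50Δ (1358), mre11Δ (1213), rrp6Δ (472), mre11-H125N (270), ku70Δ (236), MMS (73.8) and wild type (63.1 normalized reads), and neighbours in this order were separate except MMS and wild type. DSE4 had the same order apart from ku70Δ (416), which was above mre11-H125N (276). For DSE2, rrp6Δ (1149) overlapped both xrn1Δ (1295) and rad50Δ (934), its neighbours in the order. For CTS1 rrp6Δ was the highest (8144), above and separate from xrn1Δ (7247), and xrn1Δ, rad50Δ (6930), mre11Δ (5607) and mre11-H125N (3780) each overlapped the next. CTS1 in MMS (240) was below and separate from wild type (1292).

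The 9 genes varied by different amounts among libraries of a group. In wild-type library 1 all 9 lay below the wild-type mean, the highest of them at -0.23 log2 units. All but EGT2 were lower in library 1 than in library 2 of rad50Δ and of mre11Δ. In wild type the highest library was 4.46-fold over the lowest for SCW11, 3.60-fold for DSE2, 3.47-fold for DSE1, 3.15-fold for AMN1, 3.07-fold for ASH1 and 2.40-fold for CTS1. The same ratio was 1.62-fold for DSE4, 1.53-fold for EGT2 and 1.39-fold for DSE3. Between the mre11Δ libraries, AMN1 differed 3.89-fold and SCW11 3.31-fold, while EGT2 differed 1.05-fold. SCW11 and AMN1 were lowest in the libraries with the lowest pheromone markers.

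Likeness of profiles was measured as the root mean square difference of log2 values over the 17 libraries, each gene centred on its own mean. The most similar pair of members was EGT2 and DSE4, at 0.40 log2 units, followed by SCW11 and AMN1, at 0.45. The least similar was EGT2 and AMN1, at 1.77. EGT2 and DSE4 hardly differed between libraries 1 and 2 of rad50Δ, mre11Δ and xrn1Δ, while DSE4 differed 1.23-fold between those of rrp6Δ. SCW11 and AMN1 were both lowest in library 1 of rad50Δ, mre11Δ and wild type. Against the mean profile of all 9 genes, DSE3 was nearest at 0.40 and EGT2 was farthest at 0.92, where the median of all tested coding genes was 1.44. That profile is made of these 9 genes and includes the libraries they were chosen on, so their nearness to it is partly built in. Among tested coding genes DSE3 ranked 1, AMN1 78 and EGT2 100 by this distance.

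The 5 genes outside the set nearest to its mean profile were YLR285C-A (0.41), PCL9 (0.42), CYB2 (0.50), SUE1 (0.58) and AIM44 (0.59 log2 units). PCL9 encodes a cyclin of the Pho85 kinase made at the end of mitosis, CYB2 a mitochondrial lactate dehydrogenase, and AIM44 a protein of the bud neck. YLR285C-A, an uncharacterized reading frame, starts 109 bases downstream of CTS1 on the same strand. Reads of a long CTS1 transcript could be counted in this frame, which was not tested. Its changes were 2.32 ± 0.34 log2 units in rad50Δ, 1.81 ± 0.34 in mre11Δ, 2.64 ± 0.34 in rrp6Δ, 2.74 ± 0.34 in xrn1Δ and -1.93 ± 0.34 with MMS. CTS1 itself changed by 2.49, 2.10, 2.75, 2.58 and -2.33 log2 units in the same order. In mre11-H125N and ku70Δ, YLR285C-A changed by 1.34 and 1.82 log2 units, and CTS1 by 1.64 and 1.48.

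**Figure D4:**
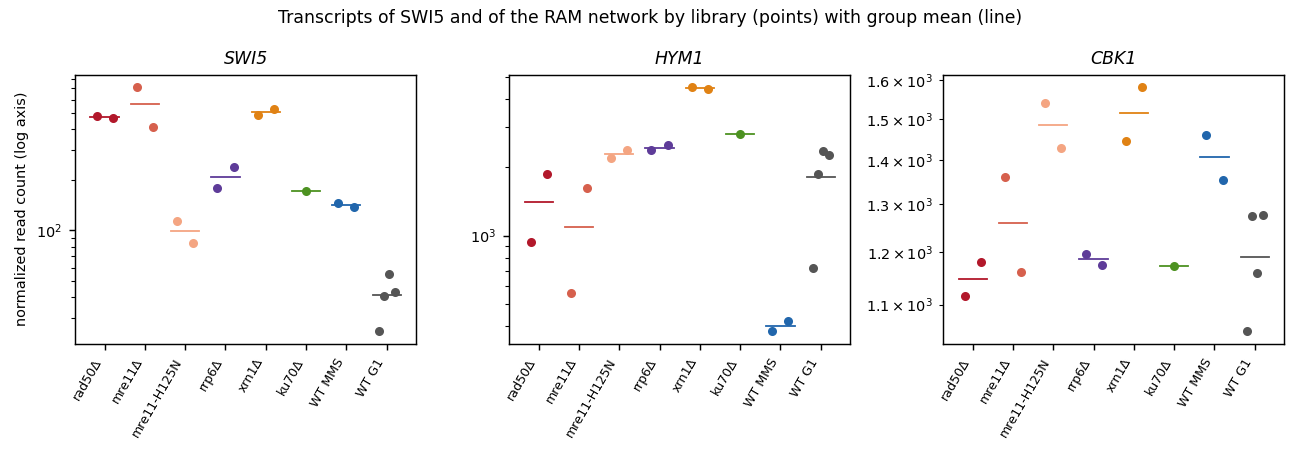
Normalized reads of SWI5, HYM1 and CBK1 (log axis, a scale per panel) in every library, with a line at the group mean. SWI5 lies above wild type in all other groups, while CBK1 lies between 1052 and 1582 in all of them.

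Transcripts of the regulators were examined next. SWI5 averaged 471 normalized reads in rad50Δ and 562 in mre11Δ, against 41.1 in wild type, differences of 3.54 ± 0.28 and 3.74 ± 0.28 log2 units. It averaged 506 in xrn1Δ (adjusted p = 1.78e-07), 208 in rrp6Δ (3.87e-05), 172 in ku70Δ (0.0180), 98.5 in mre11-H125N (0.0456) and 141 with MMS (0.000238), and rose in each. The mre11-H125N call was lost without mre11-H125N library 1 and without wild-type library 1 or 4. It was also lost with no filter on the mean, with only the groups compared and with wild-type libraries 3 and 4 only. The ku70Δ call rests on 1 library and was lost when ku70Δ and wild type were fitted alone.

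Of 6 genes of the RAM network, 1 was over the threshold upwards in rad50Δ and in mre11Δ, TAO3, a scaffold of the network. TAO3 differed by 0.48 ± 0.12 and 0.43 ± 0.12 log2 units there, and was not over the threshold in either without the number 1 libraries of rad50Δ, mre11Δ and wild type. Of the same list 5 genes rose in xrn1Δ, and with MMS 2 rose and 1 fell, where 23.5% of coding genes moved each way. In xrn1Δ, KIC1, a kinase that acts ahead of Cbk1, rose by 1.00 ± 0.14 log2 units and CBK1 by 0.35 ± 0.11 (adjusted p = 3.87e-05 and 0.0120). The others that rose were HYM1, SOG2 and TAO3, and MOB2 was the exception (0.27 ± 0.21, adjusted p = 0.275). HYM1 and SOG2, which are both subunits of the network, lost their calls without either xrn1Δ library, and CBK1 without xrn1Δ library 2. HYM1 fell with MMS, to a mean of 402 normalized reads against 1803 in wild type (adjusted p = 0.00671), a call lost without MMS library 1.

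Of 13 genes of Swi5 and the interval from mitosis to G1, 6 were over the threshold upwards in rad50Δ, 7 in mre11Δ, 1 in mre11-H125N, 4 in rrp6Δ, 10 in xrn1Δ and 1 in ku70Δ, while 2 rose and 8 fell with MMS. PIR3 and PIR1, which encode proteins linked to wall glucan, were 2.17 ± 0.47 and 1.95 ± 0.50 log2 units higher in rad50Δ, and 2.21 ± 0.47 and 1.72 ± 0.50 higher in mre11Δ. Neither was over the threshold without library 1 of rad50Δ, mre11Δ and wild type. The median over the 13 genes was 1.46 log2 units in rad50Δ and 1.65 in mre11Δ, and SWI5 is among them.

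Of 13 genes for other wall and septum enzymes, 3 were over the threshold upwards in rad50Δ and 3 in mre11Δ, 2 rose and 7 fell in xrn1Δ, and 6 fell with MMS. The list's median change was -0.0099 log2 units in rad50Δ, 0.085 in mre11Δ and -0.46 in xrn1Δ. In mre11Δ 1 of them was over the threshold without the number 1 libraries. CHS2, the chitin synthase of the primary septum, was 1.42 ± 0.16 log2 units higher in rad50Δ and 1.62 ± 0.16 in mre11Δ. SUN4, a wall protein of septation, was 0.94 ± 0.28 and 1.16 ± 0.28 higher, and was not over the threshold without library 1 of the same groups. SCW10, a glucanase-like relative of SCW11, fell in xrn1Δ to a mean of 6205 normalized reads, against 23833 in wild type (-1.91 ± 0.28, adjusted p = 5.68e-05).

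Of 11 genes of the mitotic exit network, which lets Swi5 into the nucleus, 3 were higher and 2 lower in rad50Δ, and 4 higher and 1 lower in mre11Δ. In xrn1Δ 5 rose and 2 fell, and with MMS 3 rose and 3 fell. Without the number 1 libraries, 2 genes were over the threshold in each deletion. BUB2, an inhibitor of the network, was 1.21 ± 0.31 log2 units higher in rad50Δ and averaged 105 normalized reads in mre11Δ against 49.5 in wild type. CDC5, the polo kinase, was 0.70 ± 0.22 and 1.05 ± 0.22 higher. Neither gene was over the threshold without library 1 of rad50Δ, mre11Δ and wild type. LTE1, an activator that resides in the bud, was 1.49 ± 0.23 higher in mre11Δ and 0.29 ± 0.23 in rad50Δ.

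The genomic surroundings of the 9 genes were then checked. The 18 nearest coding genes, 1 on each side, had 5 higher and 2 lower calls in rad50Δ, 2 and 3 in mre11Δ, 3 and 2 in rrp6Δ, 7 and 7 in xrn1Δ, and 5 and 5 with MMS. The counts in xrn1Δ and with MMS are near the shares of all coding genes, 35.1% and 32.8% in xrn1Δ and 23.5% each way with MMS. The shares higher and lower were 12.8% and 12.1% in rad50Δ, 12.1% and 11.9% in mre11Δ, and 8.64% and 9.19% in rrp6Δ. At an end of chromosome 14, MDJ2, the divergent neighbour of EGT2 at 773 bases, averaged 156 normalized reads in xrn1Δ and 48.3 in wild type, where EGT2 averaged 2748 and 63.1. MDJ2 was also over the threshold upwards in rad50Δ, by 0.78 log2 units, but not in mre11Δ (0.60). YNR068C, upstream of DSE4 on the same strand at 967 bases, averaged 2932 with MMS and 114 in wild type (adjusted p = 1.58e-10), while DSE4 averaged 116 and 106. Like DSE4, YNR068C was over the threshold upwards in rad50Δ and mre11Δ, by 1.55 and 1.26 log2 units. It also rose in rrp6Δ and xrn1Δ, by 0.51 and 2.12, as DSE4 did. In mre11-H125N and ku70Δ, where DSE4 rose, YNR068C was not called (0.52 and 0.81). CGR1, a convergent neighbour of SCW11, was 1.71 ± 0.52 log2 units lower in rad50Δ and 2.21 ± 0.52 lower in mre11Δ, and was over the threshold in neither without the number 1 libraries of rad50Δ, mre11Δ and wild type.

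**Figure D5:**
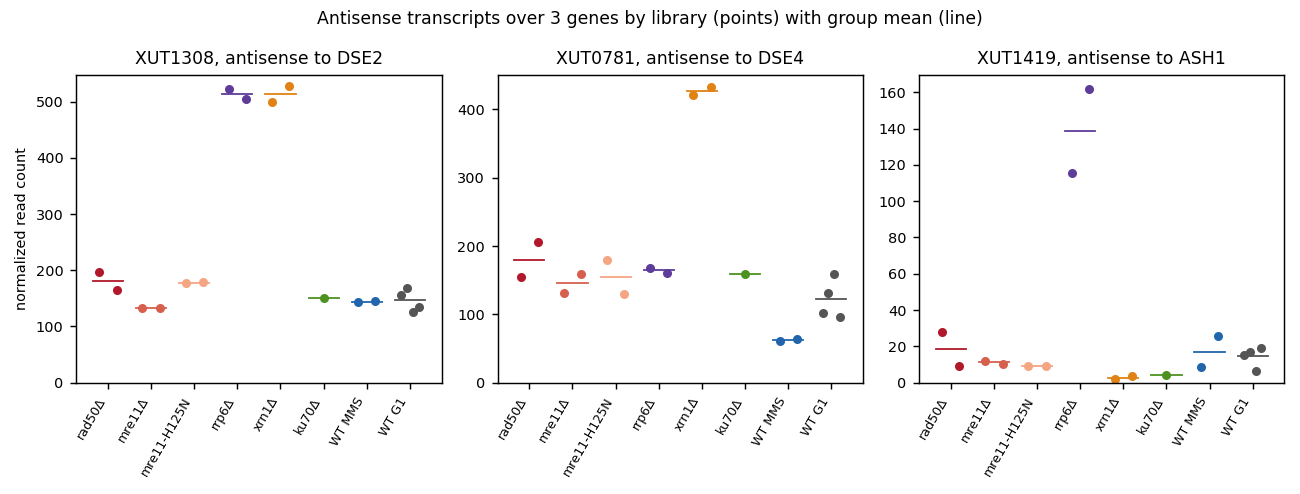
Normalized reads of 3 antisense transcripts over DSE2, DSE4 and ASH1 in every library, with a line at the group mean. The transcript over DSE2 is high in rrp6Δ and xrn1Δ, that over DSE4 in xrn1Δ and that over ASH1 in rrp6Δ.

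Antisense RNA over the genes was read from the strand-specific libraries. Of 18 antisense rows that overlap the reading frames, 10 passed the filter; 6 of these rose and 3 fell in xrn1Δ, 4 rose in rrp6Δ, 2 were over the threshold upwards in rad50Δ, 1 upwards and 1 downwards in mre11Δ, and 1 fell with MMS. Of all tested rows of the table, 35.1% rose and 28.9% fell in xrn1Δ, 21.3% rose in rrp6Δ and 22.6% fell with MMS, while 12.4% were higher in rad50Δ, and 10.7% higher and 9.84% lower in mre11Δ. XUT1308, which covers the whole of DSE2, averaged 514 normalized reads in rrp6Δ and 514 in xrn1Δ, against 147 in wild type (adjusted p = 1.88e-06 and 2.29e-07). In rad50Δ it averaged 181 and was not called, while DSE2 averaged 934 there. XUT0781, over DSE4, averaged 427 in xrn1Δ and 122 in wild type (adjusted p = 7.98e-06). XUT1419, over the end of ASH1, averaged 139 in rrp6Δ and 14.5 in wild type (adjusted p = 0.000447), in a strain where ASH1 itself was not called. It fell in xrn1Δ, to a mean of 2.76 (adjusted p = 0.00481), a call lost without xrn1Δ library 1. XUT0782, also over DSE4, averaged 50.3 in rad50Δ, 45.4 in mre11Δ and 21.7 in wild type, and was not over the threshold in rad50Δ without either rad50Δ library. SUT589, which overlaps DSE2, averaged 35.4 in rad50Δ, 9.97 in mre11Δ and 36.1 in wild type, a difference of -1.73 ± 0.24 log2 units in mre11Δ, where DSE2 itself was higher. The rows can overlap each other, so their counts can share reads.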

How the data were processed

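Per the labels, RNA was taken with hot phenol and made into rRNA-depleted, strand-specific libraries. Per the submitters' processing notes, reads were aligned with STAR 2.5.3 to build R64, and SAMtools 0.1.19 and DESeq2 were used; the counting program is not given in the sources used here. The deposited signal values are normalized reads per annotated row. In each of the 17 libraries every value (100%) was a whole multiple of the value of 1 read, to a tolerance of 0.02, which gave back whole reads for 16 libraries (not for ku70Δ, where 1 read is worth nearly 1). The authors' signal densities (normalized reads per base) gave the levels per base. The other 12 samples of the series were not analysed here.

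The test was limma 3.58.1 (in R 4.3.3, with its trend and robust options) on log2 of the value plus 1. The 17 libraries entered as 8 groups, which left 9 residual degrees of freedom. Benjamini-Hochberg adjustment covered the 16559 rows whose mean reached 10, and the threshold was 0.05. The procedure was tested on simulated counts with the same dispersion for every row and no library displaced as a whole. The spread between libraries seen here was therefore not covered by it. The members and the gene lists were chosen with earlier results of these data known. Named genes were all members, all of the RAM list, 3 per other list with the largest change in the MRX deletions, the nearest neighbours, the 5 nearest profiles and the deleted genes. A gene of the RAM and mitotic lists is not reported here and was left out of both. The antisense rows named, SAG1, STE3 and MF(ALPHA)2 were picked after their values were seen. All 9 members had the coordinates of the RefSeq annotation of R64. The fit was repeated with a pseudocount of 0.5 or 8, without a filter or with a minimum mean of 50, on coding rows only, with TMM or median-of-ratios factors, with edgeR 4.0.16 and DESeq2 1.42.0 on whole reads (ku70Δ left out), on only the groups compared, with a replicate block, with wild-type libraries 1 and 2 or 3 and 4 only, without library 1 of rad50Δ, of mre11Δ and of wild type together, and without each library in turn. Repeating these fits for the list counts and for genes outside the set was added after seeing the data.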

Additional observations from a re-analysis of the deposited data

Results flagged for a closer look

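Among the 9 genes, 4 had a wild-type library that stood apart from the other 3 by the Dixon ratio, the gap to the nearest library over the whole range set against its critical value for 4 samples. Chance marks about 1 group in 20. Wild-type library 2 was high for DSE2 (234 normalized reads, ratio 0.972) and for CTS1 (2178, ratio 0.864). Library 3 was high for ASH1 (1309, ratio 0.917). Library 1 was low for SCW11 (339, ratio 0.850), and it is the wild-type library with high G1/S and low pheromone markers.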

How the results depend on the processing

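Member counts per comparison ranged, with each library left out in turn, from 5 to 7 in rad50Δ, 5 to 7 in mre11Δ, 2 to 4 in mre11-H125N, 6 to 7 in rrp6Δ, 8 to 9 in xrn1Δ, 2 to 4 in ku70Δ (4 without wild-type library 2), 4 to 6 with MMS, 0 to 0 between the deletions and 2 to 3 between mre11Δ and mre11-H125N. In mre11-H125N the count of 3 became 5 in DESeq2, 1 with only the groups compared and 5 with the replicate block. In ku70Δ the count of 2 became 0 with only the groups compared and 4 with the block. Between mre11Δ and mre11-H125N the count of 2 became 4 in DESeq2 and with wild-type libraries 3 and 4 only. The cause was not tested. edgeR on whole reads called 6, 6, 3, 7, 9 and 5 members in rad50Δ, mre11Δ, mre11-H125N, rrp6Δ, xrn1Δ and MMS, and DESeq2 called 346 higher and 338 lower coding genes in mre11-H125N, against 58 and 23 in the fit reported. Over all groups the replicate numbers could not be taken as pairs, since same-numbered libraries correlated from -0.55 to 0.69 after group means were removed. Among rad50Δ, mre11Δ and wild type alone, numbers 1 and 2 correlated at 0.44 to 0.69, as a hint from the data. The block gave 7, 6, 7, 9 and 6 members in rad50Δ, mre11Δ, rrp6Δ, xrn1Δ and MMS.

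Of the members' log2 changes under alternatives, 1461 kept direction and side of the threshold, 38 passed it, 27 lost it and 22 turned round, none of the last called in the fit reported. AMN1 in rad50Δ became -0.31 without rad50Δ library 2 (0.63 without library 1), -0.20 without wild-type library 1 and -0.22 with wild-type 3 and 4 only. SCW11 in mre11Δ became -0.53, -0.18 and -0.12 without mre11Δ library 2, without wild-type library 1 and with wild-type 3 and 4 only (1.198 without mre11Δ library 1), and AMN1 in mre11Δ became 0.35 without mre11Δ library 1 (-1.61 without library 2). ASH1 in mre11-H125N became -0.010 in edgeR, -0.0050 in DESeq2 and -0.16 with wild-type 3 and 4 only. In rrp6Δ ASH1 became 0.27 with the block and with wild-type 1 and 2 only, 0.037 without rrp6Δ library 1 and 0.32 without wild-type library 3. For rad50Δ against mre11Δ, SCW11, CTS1 and AMN1 became -0.13, -0.18 and -0.19 without mre11Δ library 1 (1.60, 0.95 and 1.77 without library 2), and ASH1 -0.011 without rad50Δ library 2 (0.28 without library 1). For mre11Δ against mre11-H125N, DSE1 and CTS1 became -0.14 and -0.11 without mre11Δ library 2 (1.17 and 1.03 without library 1), and SCW11 0.074 without mre11Δ library 1 (-1.65 without library 2) or without all number 1 libraries. Of the changes named outside the set, none turned round and 94 lost the threshold, and 4 or 5 of the 5 nearest profiles stayed nearest under other pseudocounts, scalings or without number 1 libraries.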
